A study of Apis mellifera with 25 samples.

Results

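Hymenoptaecin (GB51223), abaecin (GB47318), apidaecin (GB47546) and defensin-1 (GB41428) are antimicrobial peptide genes of the honey bee, Apis mellifera. They were taken by identifier, whatever their values, and all 4 were present among the 15314 gene identifiers of the deposited count table. The table gives identifiers only, so the names rest on the list by which the genes were chosen, and their sequences and genome positions were not used here. RNA came from 25 adult workers more than 18 days after emergence, with 1 bee per library, bred by crossing Africanized with European bees in both directions and kept in colonies without a queen. Under these conditions some workers activate their ovaries. After dissection, 12 workers had active ovaries and 13 had inactive ovaries. Each library was made from polyadenylated RNA of an eviscerated abdomen, which still held the fat body and the ovaries. Library titles begin with 875, 882, 888 or 894. The labels do not define these numbers or the direction of each cross, and they are called title prefixes here. Each prefix held 3 bees with active ovaries and 3 with inactive ovaries, except prefix 882, which held 4 with inactive ovaries. Bees are named by ovary status and a replicate number that follows the deposited order.

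Antimicrobial peptides are small secreted proteins that insects release into the blood, mostly from the fat body, after infection. In Drosophila their genes are switched on by the Toll and Imd pathways through NF-kappaB-type transcription factors. In the honey bee, abaecin and hymenoptaecin are known to need such a factor, Relish, whereas defensin-1 is less dependent on it. Abaecin and apidaecin are proline-rich peptides, the apidaecin precursor carries several copies of its peptide, hymenoptaecin is glycine-rich, and defensin-1 is a cysteine-bridged peptide also found in royal jelly.

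Library totals, in units of 1000000 gene counts, ran from 11.5 to 34.7 with active ovaries (median 27.6, n = 12) and from 7.54 to 37.7 with inactive ovaries (median 24.0, n = 13). Depth did not limit detection of the 4 genes, whose lowest count in any library was 41. Levels are given as CPM, counts per 1000000 after TMM scaling of library totals. CPM is not corrected for gene length, so levels are compared between bees and not between genes. The labelled tissues were not checked against marker genes, because 0 identifiers matched a gene of the reference table. In RNA from whole tissue, fewer cells of a type and less RNA per cell cannot be told apart. Inactive replicate 6 of prefix 882 and inactive replicates 8 and 9 of prefix 888 differed from the other bees of their prefix in an earlier analysis of allele-specific reads. The tests of ovary status, of prefixes in all bees and of the correlations were therefore also run without these 3 libraries.

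The 4 genes differed between bees far more than most genes. Hymenoptaecin ranged from 17.3 to 10611 CPM over the 25 bees with a median of 217 CPM, which is 614-fold between the lowest and the highest bee. Defensin-1 ranged from 3.34 to 6481 CPM with a median of 94.8 CPM, or 1940.4-fold. Abaecin ranged from 94.7 to 13467 CPM with a median of 1580.4 CPM, or 142-fold, and apidaecin from 875 to 40833 CPM with a median of 3689 CPM, or 46.7-fold. A ratio of at least 100 between the highest and lowest bee was found in 183 of the 13157 genes that passed the filter on low counts (1.39%). The SD of log2 CPM over bees was 2.64 for hymenoptaecin, 2.60 for defensin-1, 1.89 for abaecin and 1.44 for apidaecin, with a median of 0.57 over all tested genes. Among the 500 genes nearest in mean level, hymenoptaecin exceeded 99.8%, defensin-1 98.8%, abaecin 97.6% and apidaecin 95% in this SD.

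**Figure D1:**
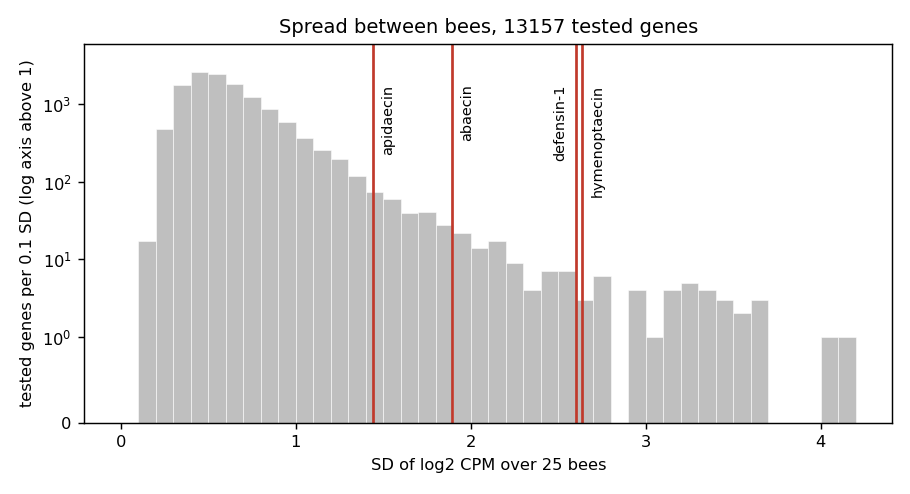
Number of tested genes (vertical axis, log scale above 1) by the SD of log2 CPM over 25 bees (horizontal axis, bins of 0.1), with red lines at the 4 antimicrobial peptide genes. All 4 lie in the right tail, at SDs of 1.44 to 2.64 against a median of 0.57 over all genes.

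For 2 of the genes, 3 bees carried most of the transcripts. For defensin-1, active replicates 1, 3 and 5 held 85.6% of the CPM summed over the 25 bees. For hymenoptaecin, active replicates 1 and 5 and inactive replicate 7 held 69.3%. The top 3 bees held less of the sum for apidaecin (44.8%; inactive replicates 7 and 6 and active replicate 5) and for abaecin (40.1%; inactive replicate 7 and active replicates 1 and 3). Together the 4 genes took 0.191% to 4.15% of all counts in libraries with active ovaries (median 0.483%) and 0.308% to 3.59% in libraries with inactive ovaries (median 0.508%). Prefix and ovary status together accounted for 73% of the variance of log2 CPM for apidaecin, 63.8% for abaecin, 49.1% for hymenoptaecin and 44.5% for defensin-1. These shares are not adjusted for the number of group means, which take up part of the variance of any gene. The same share over all genes was not computed. Within groups of the same prefix and ovary status, the SD of log2 CPM was still 2.23 for hymenoptaecin, 2.30 for defensin-1, 1.35 for abaecin and 0.89 for apidaecin, against a median of 0.50 over all genes. Apidaecin exceeded 86.6% of the 500 nearest genes in this within-group SD.

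**Figure D2:**
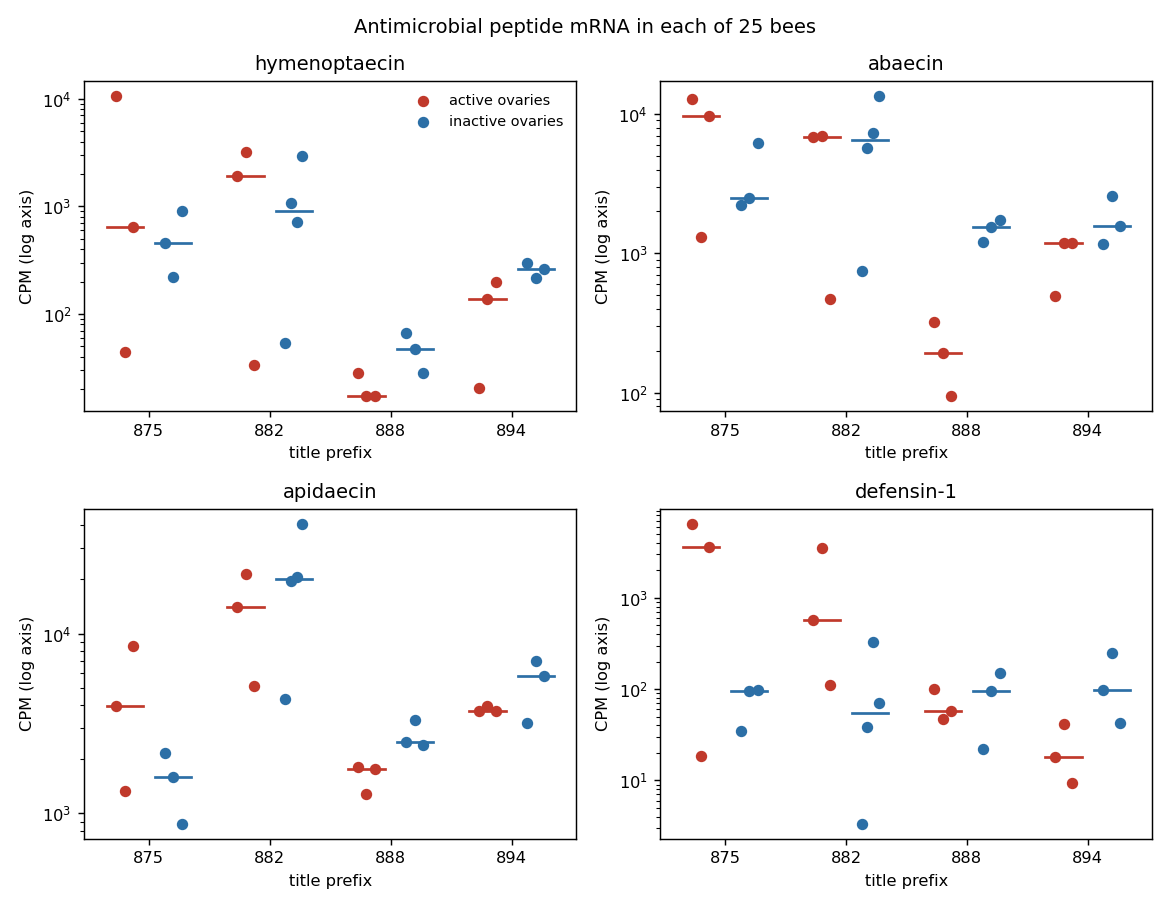
CPM of each gene in each of 25 bees (log axis) by title prefix, with active ovaries in red on the left and inactive ovaries in blue on the right of each prefix. Bars are medians of 3 bees, or of 4 for prefix 882 with inactive ovaries. Hymenoptaecin is low in all 6 bees of prefix 888, and apidaecin is high in 5 of 7 bees of prefix 882.

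The first comparison asked whether the peptide genes differed between workers with active and inactive ovaries. None of them did beyond the spread between bees. With ovary status tested in all 25 libraries and prefix held as a covariate, 0 of 4 genes were called (edgeR quasi-likelihood F test, Benjamini-Hochberg adjusted p under 0.05), where 21.6% of all 13157 tested genes were called, 11.3% higher and 10.4% lower with active ovaries. At an unadjusted p under 0.05, 0 of 4 would have been called (37.0% of all genes), limma-voom also called 0 of 4 (20.4% of all genes), and so did the DESeq2 Wald test (27.7% of all genes). An exact two-sided permutation test of mean log2 CPM, with status exchanged within prefixes, gave p = 0.54 for hymenoptaecin, 0.11 for abaecin, 0.765 for apidaecin and 0.217 for defensin-1. The median log2 change of the 4 genes was 0.02, against -0.04 over all tested genes, and their median absolute change was 0.48 against 0.33.

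Defensin-1, the cysteine-bridged peptide, had the largest estimate. It ranged from 9.42 to 6481 CPM (median 78.7, n = 12) with active ovaries and from 3.34 to 325 CPM (median 94.8, n = 13) with inactive ovaries. The 4 bees above 325 CPM all had active ovaries, the other 8 bees with active ovaries stood at 110.1 CPM or less, and the median was lower with active ovaries. Its log2 change of 1.84, active over inactive, had a 95% interval of -0.85 to 4.52 (SE 1.30, edgeR adjusted p = 0.313). It was 0.80 without active replicate 5, 0.45 without prefix 875 and 0.23 without prefix 882. Without the prefix term the change was 3.58 and passed the threshold (edgeR adjusted p = 0.0140), in a fit that called 1 of 4 peptide genes and 20.8% of all genes.

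Abaecin, a proline-rich peptide, leaned the other way. It had 94.7 to 12761 CPM (median 1187, n = 12) with active ovaries and 746 to 13467 CPM (median 2226, n = 13) with inactive ovaries. The log2 change was -0.77 (95% interval -1.86 to 0.32, SE 0.53, edgeR adjusted p = 0.301). The groups shared their upper range, while 5 bees with active ovaries lay below the lowest bee with inactive ovaries.

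Hymenoptaecin, the glycine-rich peptide, had 17.3 to 10611 CPM (median 91.1, n = 12) with active ovaries and 28.6 to 2931 CPM (median 263, n = 13) with inactive ovaries. Its fitted log2 change was 0.19 (95% interval -1.45 to 1.83, SE 0.79, edgeR adjusted p = 0.883). The estimate changed sign without active replicate 1 (-0.55, edgeR adjusted p = 0.509) and without active replicate 5 or inactive replicate 1 or 2 (-0.08 to -0.02). Apidaecin, whose precursor carries repeated peptides, had 1287 to 21445 CPM (median 3813, n = 12) with active ovaries and 875 to 40833 CPM (median 3323, n = 13) with inactive ovaries. Its log2 change was -0.14 (95% interval -0.90 to 0.62, SE 0.37, edgeR adjusted p = 0.807), and it changed sign without TMM scaling (0.16). The intervals of hymenoptaecin, abaecin and defensin-1 include changes of more than 2-fold, so the data do not show that ovary status leaves these genes alike. Nor do they show it for apidaecin, whose narrower interval pools estimates from -0.76 in prefix 888 to 1.57 in prefix 875.

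The prefixes differed more clearly than the ovary groups. The F test of the 4 prefixes, with ovary status held, called hymenoptaecin (edgeR adjusted p = 0.0175), abaecin (adjusted p = 0.0182) and apidaecin (adjusted p = 0.00133), but not defensin-1 (adjusted p = 0.495). That is 3 of 4 genes, where 6.3% of all tested genes were called. The 3 calls held in all 25 fits that left out 1 library (largest edgeR adjusted p 0.0430) and in the fit without inactive replicates 6, 8 and 9, which called 10.9% of all genes (largest edgeR adjusted p 0.0268). Prefix means accounted for 64.8% of the variance of log2 CPM for apidaecin, 45.2% for hymenoptaecin, 44.2% for abaecin and 12.3% for defensin-1, with a median of 15.0% over all tested genes.

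Hymenoptaecin set prefix 888 apart at the low end. Its bees had 28.5, 17.5 and 17.3 CPM with active ovaries and 67.3, 47.6 and 28.6 CPM with inactive ovaries. In prefix 875 the values were 10611, 43.9 and 637 CPM with active ovaries and 455, 220.5 and 899.6 CPM with inactive ovaries. In prefix 882 they were 1936, 3228 and 33.9 CPM with active ovaries and 53.3, 1082, 718 and 2931 CPM with inactive ovaries. Thus 5 of 6 bees of prefix 875 and 5 of 7 bees of prefix 882 exceeded every bee of prefix 888, and the 3 remaining bees fell inside its range. Prefix 894 lay between them, with 20.4, 138 and 197 CPM with active ovaries and 297, 217 and 263 CPM with inactive ovaries.

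By mean log2 CPM the order for hymenoptaecin was 882 (9.21 ± 2.71, SD, n = 7), 875 (9.10 ± 2.60, n = 6), 894 (7.18 ± 1.44, n = 6) and 888 (4.93 ± 0.78, n = 6). Pairs of prefixes were then compared in the same fit, a step chosen after the values had been seen, with p adjusted over all genes within each pair. In prefix 882 over prefix 888 the log2 difference was 5.33 (SE 1.21, edgeR adjusted p = 0.0311), in a contrast in which 1.35% of all genes were called. This call was kept without inactive replicates 6, 8 and 9 (6.13, edgeR adjusted p = 0.0394) but was lost in 6 of 25 fits that left out 1 library (inactive replicates 7 and 10 and active replicates 5, 7, 8 and 9; adjusted p up to 0.101). Prefix 875 exceeded prefix 888 by 5.85 (SE 1.30) but missed the threshold (edgeR adjusted p = 0.0635), in a contrast that called 0.152% of genes. Without active replicate 1, which stood at 10611 CPM, that difference was 3.71, and it passed without active replicate 2 (edgeR adjusted p = 0.0359) or inactive replicate 4 (0.0486). Neighbouring prefixes did not pass the test. The edgeR adjusted p was 0.849 for 875 over 882 (log2 difference 0.52), 0.101 for 875 over 894 (3.40, 4.27% of genes called) and 0.232 for 888 over 894 (-2.46, 0.395% of genes called).

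Abaecin had the same order of fitted levels as hymenoptaecin (875, 882, 894, 888, of which the first pair is not resolved), over a smaller range. In prefix 888 it had 323, 191 and 94.7 CPM with active ovaries and 1218, 1558 and 1736 CPM with inactive ovaries. In prefix 875 it had 12761, 1315 and 9663 CPM with active ovaries and 2226, 2515 and 6209 CPM with inactive ovaries. In prefix 882 it had 6806, 6986 and 471 CPM with active ovaries and 746, 5752, 7365 and 13467 CPM with inactive ovaries. The low values of prefix 888 were thus those of its bees with active ovaries, whereas its bees with inactive ovaries overlapped with prefixes 875 and 894. They also fell inside the range of prefix 882, between its bees at 471 and 746 CPM and those at 5752 CPM or more. Prefix 894 had 495, 1178 and 1196 CPM with active ovaries and 1173, 2578 and 1580.4 CPM with inactive ovaries. Mean log2 CPM was 12.04 ± 1.31 in prefix 875 (SD, n = 6), 11.85 ± 1.86 in prefix 882 (n = 7), 10.26 ± 0.78 in prefix 894 (n = 6) and 9.02 ± 1.77 in prefix 888 (n = 6). Prefix 882 over prefix 888 was called at a log2 difference of 2.99 (SE 0.74, edgeR adjusted p = 0.0442), and the 5 other pairs were not (edgeR adjusted p from 0.0684 to 0.913), although 875 over 894 passed without active replicate 2 (2.51, edgeR adjusted p = 0.0431). The call was kept without inactive replicates 6, 8 and 9 (3.39, edgeR adjusted p = 0.0435) but was lost in 12 of 25 fits that left out 1 library, with log2 differences of 2.71 to 3.26 over the 25 fits (adjusted p up to 0.135).

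Apidaecin set prefix 882 apart at the high end. Its bees of prefix 882 had 14094, 21445 and 5084 CPM with active ovaries and 4333, 19717, 20662 and 40833 CPM with inactive ovaries. The 5 highest of these lay above all 18 bees of the other prefixes, whose highest value was 8524 CPM. Apidaecin is known from closely similar gene copies, and how reads that match several copies were counted is not stated in the sources used here. Prefix 875 had 3961, 1328 and 8524 CPM with active ovaries and 2174, 1589 and 875 CPM with inactive ovaries. Prefix 888 had 1811, 1287 and 1766 CPM with active ovaries and 2498, 3323 and 2411 CPM with inactive ovaries, and prefix 894 had 3689, 3937 and 3688 CPM with active ovaries and 3184, 7039 and 5806 CPM with inactive ovaries. Bees of a prefix stood closer together in prefixes 888 and 894 (SD of log2 CPM 0.48 and 0.45, n = 6 each) than in prefixes 875 and 882 (1.19, n = 6, and 1.18, n = 7), a difference in spread that was not tested.

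Mean log2 CPM of apidaecin was 13.78 ± 1.18 in prefix 882 (SD, n = 7), 12.09 ± 0.45 in prefix 894 (n = 6), 11.15 ± 1.19 in prefix 875 (n = 6) and 11.03 ± 0.48 in prefix 888 (n = 6). Prefix 882 over prefix 888 was called at a log2 difference of 3.04 (SE 0.53, edgeR adjusted p = 0.00838). Prefix 875 over prefix 882 was called at -2.49 (SE 0.54, edgeR adjusted p = 0.00899), in a contrast that called 3.55% of genes. Prefix 882 over prefix 894 had a log2 difference of 1.97 (SE 0.51) and missed the threshold (edgeR adjusted p = 0.196), in a contrast that called 0.0532% of genes. Both apidaecin calls held in all 25 fits that left out 1 library (largest edgeR adjusted p 0.0381 and 0.0306) and without inactive replicates 6, 8 and 9 (0.0141 and 0.0151). For hymenoptaecin and abaecin, by contrast, prefix 875 stood close to 882, with log2 differences of 0.52 (95% interval -1.59 to 2.63) and 0.21 (-1.19 to 1.62), which span 2-fold differences in both directions. Without active replicate 1 the hymenoptaecin difference was -1.78, so the order of 875 and 882 rests on that bee, and the abaecin difference ran from -0.29 to 0.48 over the 25 fits that left out 1 library. For apidaecin it stood close to 888, at 0.55 (95% interval -0.52 to 1.62).

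Defensin-1 showed no difference between prefixes that passed the test. In prefix 888 its levels were 101, 47.5 and 56.8 CPM with active ovaries and 21.9, 95.2 and 152 CPM with inactive ovaries. In prefix 894 they were 18.0, 41.3 and 9.42 CPM with active ovaries and 98.4, 246 and 43.0 CPM with inactive ovaries. Levels in prefixes 875 and 882 reached 6481 and 3518 CPM in single bees, while other bees of these prefixes stood at 18.5 and 3.34 CPM. The median was 96.2 CPM in prefix 875 (n = 6), 110.1 in 882 (n = 7), 76.0 in 888 (n = 6) and 42.1 in 894 (n = 6).

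The prefixes were also compared among bees of 1 ovary status. The pair of prefixes with the highest and lowest fitted level in all bees was kept for each gene, and need not be the highest and lowest within a status. For 875 over 888, the log2 difference was 7.54 with active and 3.47 with inactive ovaries for hymenoptaecin, 5.35 with active and 1.32 with inactive ovaries for abaecin, and 5.69 with active and -0.20 with inactive ovaries for defensin-1. The hymenoptaecin gap between ovary groups rested on active replicate 1, at 10611 CPM. In a joint fit of all bees, its log2 change, active over inactive, was 4.02 higher in 875 than in 888, and 0.56 higher without that bee. For 882 over 888 it was 3.12 with active and 2.89 with inactive ovaries for apidaecin. With active libraries alone, abaecin (edgeR adjusted p = 0.0287), apidaecin (adjusted p = 0.0432) and defensin-1 (adjusted p = 0.0365) were called and hymenoptaecin was not (adjusted p = 0.0596), so 3 of 4 genes, where 6.6% of all genes were called. With inactive libraries alone 0 of 4 were called (edgeR adjusted p from 0.0728 to 0.991), where 0.00732% of all genes, or 1 gene, was called. The calls in the 2 sets cannot be compared directly, and the difference between them is what the test of the ovary effect between prefixes addresses.

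That test called 0 of 4 genes, where 0.167% of all genes were called (edgeR F test of the interaction). The background was unstable, with 0 to 109 genes called over the 25 fits that left out 1 library and 22 in all libraries. At an unadjusted p under 0.05, 2 of 4 passed, against 11.8% of all genes. They were defensin-1 (p = 0.00329, edgeR adjusted p = 0.151) and abaecin (p = 0.0328, edgeR adjusted p = 0.363), and limma-voom also called 0 of 4 (0.182% of all genes). Defensin-1 had the widest range of estimates. Its log2 change, active over inactive, was 5.48 in prefix 875 (95% interval 2.12 to 8.84), 3.68 in prefix 882 (0.93 to 6.43), -0.39 in prefix 888 (-3.17 to 2.39) and -2.50 in prefix 894 (-5.43 to 0.44). In prefix 875 the bees had 6481, 18.5 and 3631 CPM with active ovaries, against 34.8, 94.8 and 97.6 CPM with inactive ovaries. In prefix 882 they had 574, 3518 and 110.1 CPM with active ovaries, against 3.34, 38.8, 325 and 70.5 CPM with inactive ovaries. In prefix 875 and in prefix 882, 1 bee with active ovaries fell among or below the bees with inactive ovaries. None of these within-prefix contrasts passed the threshold for defensin-1 (edgeR adjusted p from 0.0972 to 0.9998). The closest was prefix 882, where 0 of 4 peptide genes and 7.14% of all genes were called. Without inactive replicates 6, 8 and 9, the first of which belongs to it, the defensin-1 change there was 5.22. Defensin-1 passed in prefix 882 without inactive replicate 6 alone (edgeR adjusted p = 0.0386) and without active replicate 2 of prefix 875 (0.0413). The shares of all genes called in those fits are not given here. Over the 25 fits that left out 1 library, the defensin-1 change in prefix 882 ran from 1.64 (without active replicate 5) to 5.22.

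**Figure D3:**
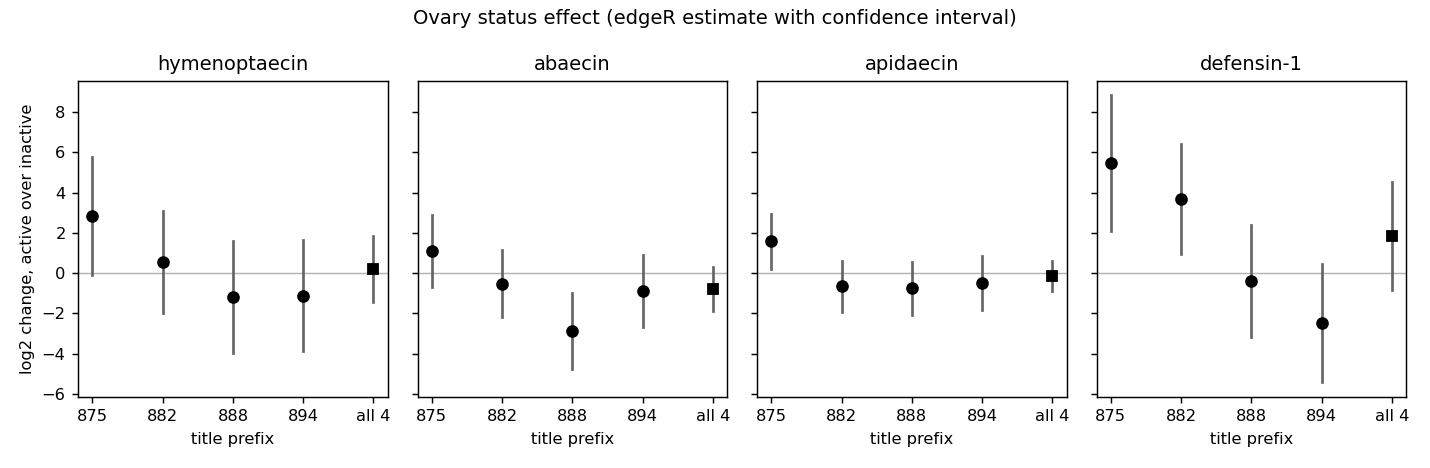
Log2 change of each gene, active over inactive ovaries, within each title prefix (circles) and over all 4 prefixes (squares), as edgeR estimates with 95% intervals. Estimates of all 4 genes are above 0 in prefix 875 (hymenoptaecin is -0.62 there without active replicate 1) and below 0 in prefixes 888 and 894, and most intervals cross 0.

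Prefix 888 held the single within-prefix call. Abaecin fell with active ovaries there by 2.89 on the log2 scale (95% interval -4.78 to -0.996, edgeR adjusted p = 0.0261), with 323, 191 and 94.7 CPM with active ovaries against 1218, 1558 and 1736 CPM with inactive ovaries. That is 1 of 4 genes, where 24.1% of all genes were called in this prefix, so the share of the peptide genes was close to the background. The call was lost without active replicate 8 (edgeR adjusted p = 0.0890) or 9 (0.102). Without inactive replicates 6, 8 and 9, 1 bee with inactive ovaries was left in prefix 888, at 1736 CPM, and the change was -3.10 (edgeR adjusted p = 0.0858), with that bee assumed to vary like the other groups. The overlap of single bees was read in each prefix. In prefix 888, hymenoptaecin, abaecin and apidaecin had every bee with active ovaries below every bee with inactive ovaries, as did 20.1% of all genes, while 21.8% of genes lay without overlap in the other direction. For hymenoptaecin the nearest bees stood at 28.46 CPM (active replicate 7) and 28.57 CPM (inactive replicate 10). TMM factors in this prefix ran from 1.17 to 1.28 with active and from 0.781 to 1.10 with inactive ovaries. By plain library totals hymenoptaecin and apidaecin overlapped, and abaecin stayed apart. In prefix 894, hymenoptaecin and defensin-1 were lower with active ovaries without overlap, as were 4.51% of all genes (1.85% in the other direction). The margins were narrow, with nearest bees at 197 and 217 CPM for hymenoptaecin and at 41.3 and 43.0 CPM for defensin-1. By plain library totals both genes overlapped in this prefix. The shares of all genes were not taken by plain totals. All 4 genes overlapped in prefix 875, where 2.8% of all genes were higher and 2.06% lower without overlap, and in prefix 882, where the shares were 11.7% and 10.4%. In prefix 875 the estimates were 2.84 for hymenoptaecin, 1.12 for abaecin and 1.57 for apidaecin, with no calls. The hymenoptaecin estimate rested on active replicate 1, at 10611 CPM, without which it was -0.62, and the abaecin estimate was then 0.59. Without active replicate 3 the apidaecin estimate was 0.77. In this prefix edgeR called 0 of 13157 genes (0.0%), of which 682 (5.18%) had an unadjusted p under 0.05. Apidaecin and defensin-1 were 2 of these. In prefix 894 edgeR also called 0 genes (0.0%), and 119 (0.904%) had an unadjusted p under 0.05, none of the 4 peptide genes among them.

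**Figure D4:**
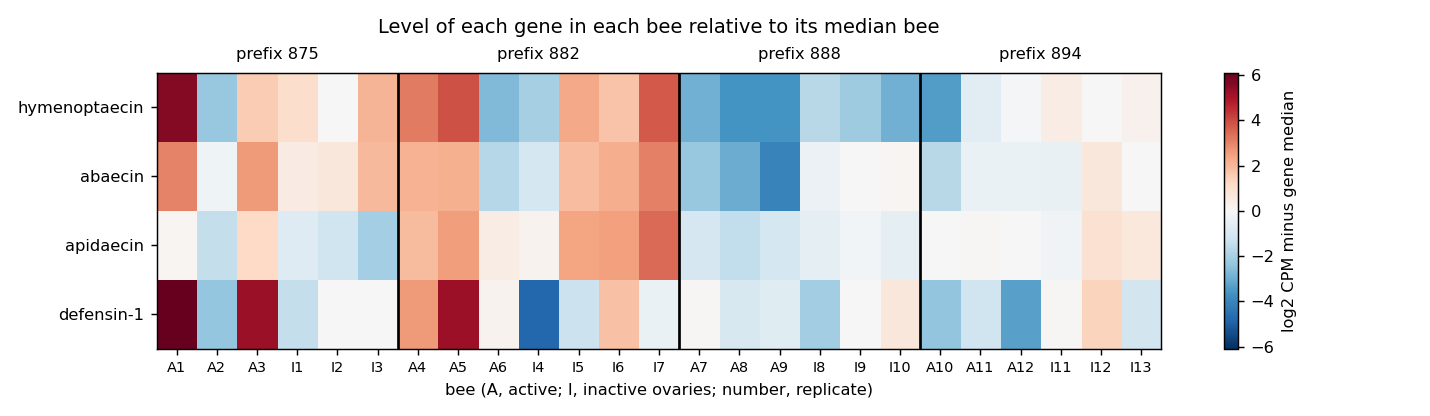
Log2 CPM of each gene minus its median over 25 bees (colour), with bees in columns by title prefix and ovary status (A, active; I, inactive; number, replicate). Bees high in hymenoptaecin were mostly high in abaecin, and A1, A3 and A5 stand out for defensin-1.

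Over all 25 bees, those high in one peptide gene tended to be high in the others, least so for apidaecin with defensin-1 (Spearman rho 0.33, not called). Of the 25 bees, 5 lay above the median bee in all 4 genes (active replicates 1, 3, 4 and 5 and inactive replicate 6, all of prefixes 875 and 882). Another 5 lay below it in all 4 genes (active replicates 2, 8, 9 and 12 and inactive replicate 8). How many bees would do so in 4 unrelated genes was not computed. Hymenoptaecin and abaecin were the closest pair, with Pearson r = 0.89 and Spearman rho = 0.88 of log2 CPM over 25 bees (two-sided permutation tests, p = 1e-05 for each, the smallest that 100000 resamples can give; adjusted p = 6e-05 over the 6 pairs). These permutations exchanged bees freely between prefixes and ovary groups, although levels of some genes differed between prefixes. Pooled permutation p values, here and for the other pairs, can therefore be too small. Among all 13156 other tested genes, abaecin ranked 1 for hymenoptaecin and hymenoptaecin ranked 2 for abaecin by Spearman rho. Their relation held with prefix and status means removed (r = 0.90, rho = 0.81) and within each prefix (r of 0.87 in 875, 0.97 in 882, 0.80 in 888 and 0.82 in 894), although rho was only 0.37 in prefix 894 (n = 6).

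Apidaecin was related to both less closely. Its r and rho were 0.59 and 0.58 with hymenoptaecin (permutation adjusted p = 0.00297 and 0.00999) and 0.59 and 0.54 with abaecin (adjusted p = 0.00297 and 0.0119). Many other genes were as close. By Spearman rho among 13156 genes, apidaecin ranked 83 for hymenoptaecin and 277 for abaecin. For apidaecin, hymenoptaecin ranked 309 and abaecin 428. Inactive replicate 3 of prefix 875, for example, had the lowest apidaecin of all bees and ranked 6 of 25 for hymenoptaecin. With prefix and status means removed, r was 0.68 with hymenoptaecin (rho 0.44) and 0.77 with abaecin (rho 0.58), and these passed the permutation test (largest adjusted p 0.030). Those permutations exchanged bees freely between groups, although group means had been removed and the groups differed in spread. The SD of log2 CPM of hymenoptaecin, for example, was 3.96 in prefix 875 and 0.41 in prefix 888 with active ovaries. Permutation p values with means removed can therefore be too small as well. Without the 2 bees farthest from the median of the first gene, r was 0.63 with hymenoptaecin and 0.51 with abaecin.

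The pairs with defensin-1 had the lowest Spearman rho. Its r and rho were 0.57 and 0.52 with abaecin (permutation adjusted p = 0.00353 and 0.0122), 0.60 and 0.42 with hymenoptaecin (adjusted p = 0.00297 and 0.0444) and 0.35 and 0.33 with apidaecin (adjusted p = 0.0824 and 0.106). By Spearman rho among 13156 genes, defensin-1 ranked 357 for abaecin, 601 for hymenoptaecin and 1961 for apidaecin. For defensin-1, abaecin ranked 119, hymenoptaecin 430 and apidaecin 1138. The relation with hymenoptaecin rested on its extreme bees. Without the 2 bees farthest from the hymenoptaecin median, r was 0.38 and rho 0.26 (adjusted p = 0.0851 and 0.229), and without inactive replicates 6, 8 and 9 rho was 0.40 (adjusted p = 0.0800). Within prefix 888 the r of defensin-1 with hymenoptaecin was -0.28 (n = 6). With prefix and status means removed, on the other hand, defensin-1 had r = 0.80 with abaecin and 0.72 with hymenoptaecin and with apidaecin (largest permutation adjusted p 0.00012). The matching rho was 0.74 with abaecin, 0.45 with hymenoptaecin (permutation adjusted p = 0.0283) and 0.56 with apidaecin (adjusted p = 0.00558). The limit on permutation p values with means removed, given above, applies to all of these. Inactive replicate 7 ranked 1 of 25 for abaecin and apidaecin and 3 for hymenoptaecin, and 14 for defensin-1.

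**Figure D5:**
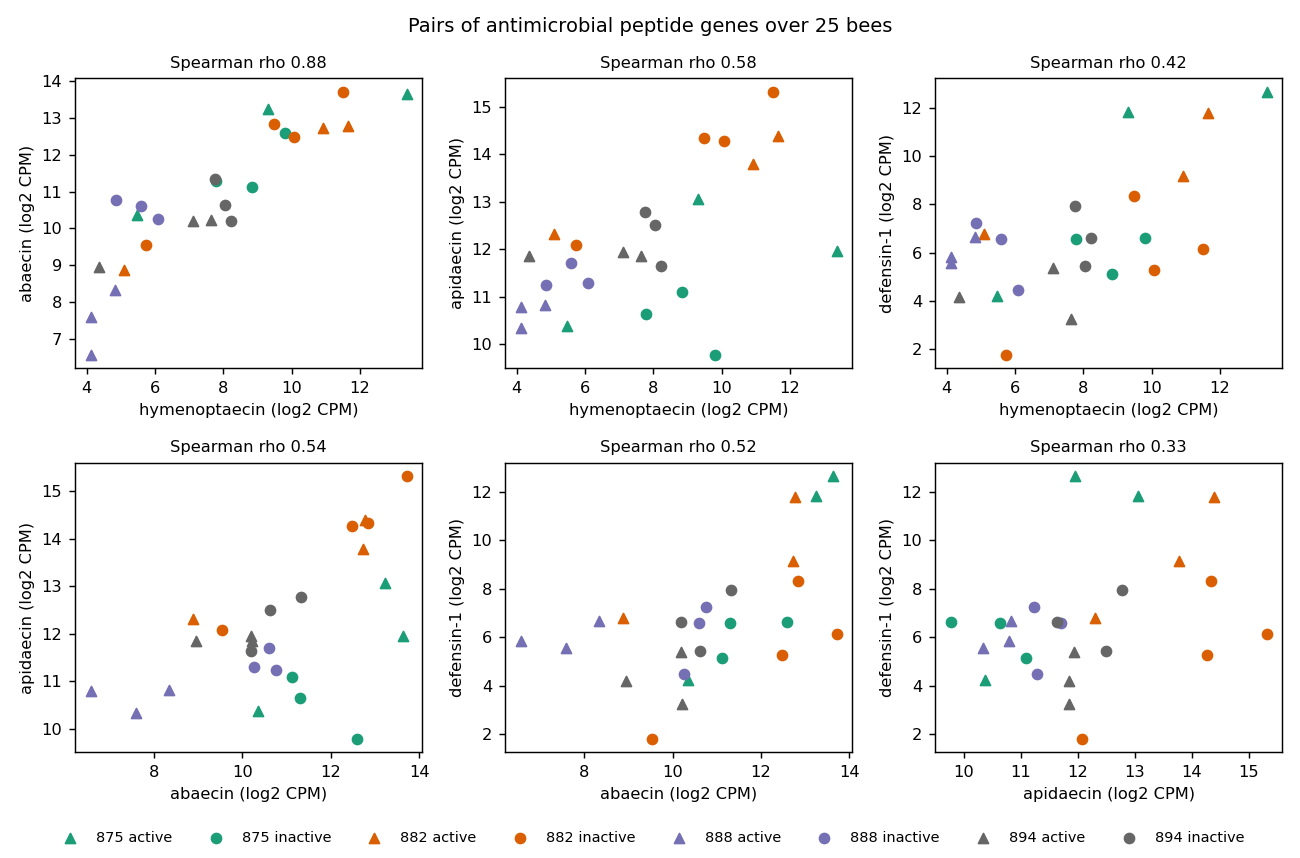
Log2 CPM of each pair of genes in 25 bees, coloured by title prefix, with triangles for active and circles for inactive ovaries. Points lie closest to a line for hymenoptaecin with abaecin (rho 0.88) and are most scattered for apidaecin with defensin-1 (rho 0.33).

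Within 1 ovary status, r was numerically higher with active ovaries in all 6 pairs. For these 12 bees r ran from 0.64 to 0.93 over the 6 pairs, all passing the permutation test (largest adjusted p 0.0246), and for the 13 bees with inactive ovaries r ran from 0.11 to 0.84, of which hymenoptaecin with abaecin passed (adjusted p = 0.00192). By Spearman rho 4 of 6 pairs passed with active ovaries and 0 of 6 with inactive ovaries (hymenoptaecin with abaecin, rho = 0.71, adjusted p = 0.0510). Bees were exchanged between prefixes here as well, so these permutation p values can be too small. The share of all gene pairs that would pass was not computed. The spread of the levels was also wider with active ovaries for hymenoptaecin (SD of log2 CPM 3.25 against 1.99), abaecin (2.35 against 1.22) and defensin-1 (3.28 against 1.69), though not for apidaecin (1.29 against 1.60). A difference in correlation or in spread between the ovary groups was not tested.

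Outside the 4 genes, the identifier with the pattern most like both hymenoptaecin (rho = 0.77) and abaecin (rho = 0.88) over 25 bees was GB44455, which ranged from 1.65 to 405 CPM with a median of 11.3 CPM. For apidaecin it was GB46236 (rho = 0.92), which ranged from 179 to 26142 CPM with a median of 1839 CPM, and for defensin-1 it was GB47580 (rho = 0.81), which ranged from 6.76 to 61.6 CPM. With prefix and status means removed, rho was 0.62, 0.80, 0.87 and 0.81 for hymenoptaecin, abaecin, apidaecin and defensin-1 with these genes. Apidaecin had 45 genes at a rho of at least 0.7, abaecin 16, hymenoptaecin 11 and defensin-1 6. The files name none of these identifiers.

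Paternal and maternal reads of the peptide genes were not analysed here. The allele tables used here hold 97633 positions for active and 108059 positions for inactive ovaries and name 4964 and 5177 genes, and 0 of their positions carried the identifier of any of the 4 genes.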

How the data were processed

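The authors deposited raw read counts per gene for 25 libraries and raw counts at single-nucleotide positions. Reads were aligned with TopHat and edgeR was used, per the submitters' processing notes. Versions, genome build, annotation, counting and strand settings were not given in these sources. Counts were used as deposited. Genes were filtered with filterByExpr (13157 of 15314 kept, all 4 peptide genes among them), scaled with TMM and tested with the robust edgeR 4.0.16 quasi-likelihood F test in R 4.3.3, with title prefix and ovary status as terms, adjusting p over all genes tested (call under 0.05). The fits were tested on simulated data before use. Log2 CPM used a prior count of 2. Spearman and Pearson correlations used 100000 permutations of bees, which were not held within prefixes. For each gene the most similar other gene by Spearman rho was named. Alternatives were limma 3.58.1, DESeq2 1.42.0, other scalings and filters, and left-out libraries or prefixes. The 3 libraries that stood apart were left out of the prefix, within-prefix, interaction and correlation results, and each library in turn out of the prefix pairs, only after results had been seen. The 4 genes, tests and lists were chosen with earlier results of these data known. A list of other immune genes could not be used, because 0 identifiers matched the 12398 genes of the reference table. Each library is 1 bee. Whether bees of a prefix are sisters is not stated in the labels.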

Additional observations from a re-analysis of the deposited data

Results flagged for a closer look

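Of 20 groups of 4 to 7 bees examined (each gene in each prefix, and in prefix 882 with inactive ovaries), 1 held a bee far from the rest, as chance gives in about 1 of 20 groups. Hymenoptaecin stood at 20.4 CPM in active replicate 10 of prefix 894, while the other 5 bees of the prefix had 138 to 297 CPM. The same bee was also the lowest of its prefix for abaecin, at 495 CPM.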

How the results depend on the processing

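Ovary status called none of the 4 genes in any alternative run except without the prefix term, where defensin-1 passed (log2 change 3.58). Changes near 0 turned sign. Hymenoptaecin was -0.52 without prefix 875, -0.021 without prefix 882, -0.56 with limma-voom and -0.53 as a difference of log2 CPM (exact permutation within prefix, p = 0.54), and -0.55 to 0.47 when 1 library was left out. Apidaecin was 0.16 without scaling, 0.074 without prefix 882 and 0.10 without prefix 888, and -0.34 to 0.015 when 1 library was left out. Abaecin ran from -0.95 to -0.56 and defensin-1 from 0.80 to 2.29 when 1 library was left out. The lowest defensin-1 value was without active replicate 5, and without prefixes 875 and 882 it was 0.45 and 0.23.

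With bees of 1 status alone, prefixes were compared as 882 over 888 for apidaecin and 875 over 888 for the other 3 genes, the extremes in all bees. With active bees the log2 differences were 7.54 for hymenoptaecin, no longer called, and 5.69 for defensin-1, then called. The 7.54 includes active replicate 1, at 10611 CPM. With inactive bees they were 3.47 for hymenoptaecin, 1.32 for abaecin, 2.89 for apidaecin and -0.20 for defensin-1, none called. Fewer bees were tested in each. The test of the ovary effect between prefixes called none of the 4 genes under any alternative run, and the SD of log2 CPM between bees ranged from 1.24 to 1.44 for apidaecin and stayed between 1.64 and 2.73 for the other 3 genes.

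Spearman rho of defensin-1 with active bees alone was 0.56 with hymenoptaecin and 0.51 with abaecin, not called, and 0.64 with apidaecin, called. The last was also called with prefix and status means removed (0.56). Permutation p values can be too small in both settings. With inactive bees alone, rho was 0.71 for hymenoptaecin with abaecin, 0.31 with apidaecin and 0.00 with defensin-1, and for abaecin 0.31 with apidaecin and 0.39 with defensin-1, none called. Defensin-1 with hymenoptaecin was 0.26 without the 2 bees farthest from the median, 0.40 without the 3 libraries that stood apart and 0.35 to 0.48 when 1 library was left out, losing its call in 11 of 25 cases. The cause was not tested. Parental reads could not be fitted with 0 positions. No paired analysis was possible because replicate numbers follow the deposited order and pair no bees. Over all tested genes, status calls numbered 2843, against 49 without prefix 882, 336 without prefix 888, 1534 without inactive replicates 6, 8 and 9, 4205 without prefix 875 and 3637 with DESeq2. Prefix calls numbered 829, against 487 without the status term, 1440 without those 3 libraries and 1 with inactive bees, and calls of the ovary effect between prefixes 22, against 7 without those 3 libraries and 0 to 109 when 1 library was left out (0 in 14 of 25 fits; 109 without inactive replicate 10).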
